A study of Mus musculus with 12 samples.

Results

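Colonies of dental epithelial cells that lacked Bmi1 were compared with wild-type colonies, 4 arrays against 4, out of 12 arrays in all. The members were chosen by their titles, Bmi1_1 to Bmi1_4 against WT_1, WT_3, WT_4 and WT_5. The cells came from the labial cervical loop of the mouse incisor, the epithelial niche that renews the ever-growing tooth, and each array carried total RNA of 1 colony grown in vitro in 2 dimensions. The genotype labels were WT and Bmi1-, the series title gives the latter as Bmi1-/-, and the genetic background of the mice was mixed. Another genotype, labelled Bmi1-;Ink4a/Arf- and called double null here, had 4 further arrays and entered the estimate of the spread. For all 3 genotypes, whole transcriptome amplification preceded Cy3 labelling, and Agilent whole mouse genome arrays carried 1 sample each. The labels call the colonies biological replicates and do not say whether they came from separate mice, and the p-values therefore refer to variation among these colonies. In bulk RNA of a colony, fewer cells of a type and less RNA per cell cannot be told apart.

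Bmi1 is a subunit of Polycomb repressive complex PRC1, which ubiquitinates histone H2A and keeps developmental genes silent together with PRC2, the complex that methylates histone H3. The locus that Bmi1 is best known for repressing is Cdkn2a, which encodes the cell cycle inhibitor p16 (Ink4a) and, in another reading frame, p19 (Arf), an activator of p53. In the incisor, epithelial stem cells that express Sox2 feed a transit-amplifying zone and then the ameloblasts, which secrete enamel. Stratified epithelia can also form a cornified layer, built of cross-linked envelope proteins, keratins and lipids.

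Each array had 43379 spots that were not controls, and 0 spots were saturated. The wild-type arrays had a narrow range of signals: their log2 signals had an interquartile range of 2.49 to 2.62 and those of the Bmi1 null arrays 4.32 to 4.68, and 90.7% to 96.9% of spots were marked by the scanner software as well above background, called detected below, against 77.2% to 84.4%. The median signal was 109 to 210 on wild-type and 82.8 to 190 on Bmi1 null arrays, over a local background of 17 to 23. Spearman correlations over genes were 0.962 to 0.990 between wild-type arrays, 0.959 to 0.981 between Bmi1 null arrays and 0.675 to 0.773 across the genotypes, and they were 0.940 to 0.971 between Bmi1 null and double null arrays. The basal epithelial keratin genes Krt5 and Krt14 were detected on all 8 arrays. Detection alone does not test the labelled cell type on wild-type arrays, where 94.8% to 99.8% of all genes tested were detected. The wild-type and Bmi1 null arrays differed in sex-linked transcripts. Xist, the RNA of the inactive X chromosome, was at 0.49 to 1.22 on all 4 Bmi1 null arrays, and the Y-linked helicase gene Ddx3y was at -8.12 to -7.20 there, detected on 0 of 4. On wild-type replicates 1, 3, 4 and 5, Ddx3y was at -2.18, -0.95, -6.97 and -7.29, and Xist at -3.59, -6.73, -1.27 and -0.47. The other Y-linked genes divided the wild-type arrays less sharply: Kdm5d was at -2.88, -2.99, -4.44 and -5.80, detected on 3 of 4, and Eif2s3y at -1.96, -1.36, -3.28 and -3.78, detected on 4 of 4, beside -7.81 to -6.93 (0 of 4) and -5.47 to -3.69 (3 of 4) on Bmi1 null arrays. Replicates 1 and 3, the wild-type arrays with the strongest Y-linked signal, are called the arrays with Y-linked signal below, and results were also computed without them. On double null arrays Ddx3y was at -0.05 to 0.40, detected on 4 of 4, and Xist at -8.16 to -3.78. All double null arrays thus had Y-linked signal and no Bmi1 null array had Ddx3y detected, so that in every difference between these genotypes the Ink4a/Arf deletion and sex-linked signal cannot be told apart.

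Beside this narrow range, the difference between the genotypes followed brightness. The double null arrays had an interquartile range of 4.16 to 4.93, so every wild-type array and no other array had the narrow range. In all differences between Bmi1 null and wild type, genotype and the signal range of the arrays therefore cannot be told apart. Levels are log2 signals minus the array's 75th percentile, and a difference is Bmi1 null minus wild type. With the 31064 genes tested in 10 equal groups by brightness, the median difference was -3.35 in the dimmest group and 1.42 in the brightest. Limma called 25937 genes (83.5%) at an adjusted p under 0.05 on levels, 7820 higher (25.2%) and 18117 lower (58.3%). Of the called genes 30.15% were higher; median scaling gave 46.9%, quantile normalization 46.7%, cyclic loess 41.4%, the authors' processed values 46.7% and genes detected on all 12 arrays 43.7%. The median difference of all genes was -1.24 and became -0.31, -0.15, -0.23 and -0.081 under the first 4 of these and -0.93 with another background correction. So each gene was also set beside genes of the same brightness: on every array the median of the genes nearest in brightness was subtracted, and the same model was fitted. On these brightness-relative values limma called 19930 genes (64.2%), 9997 higher (32.2%) and 9933 lower (32%). Below, a gene rose or fell where both fits called it in the same direction, which held for 5702 genes upward (18.4%) and 8960 downward (28.8%), 47.2% in all. The 4 and 4 arrays did not overlap in 23.8% of genes upward and 56.3% downward on levels, and in 30.6% and 32.2% on brightness-relative values. Another 1848 genes were called one way on levels and the other way on brightness-relative values. Where levels are not named, a gene's difference from wild type given below with ± SE is brightness-relative and not a log2 fold change of levels. Differences between double null and Bmi1 null colonies are on levels. Counts of gene lists are to be read against 18.4% and 28.8%, and medians of lists against a median brightness-relative difference of 0.0053 over all genes tested. These shares do not allow for the brightness of a list. On levels limma called 1.26% of genes higher and 93.9% lower in the dimmest group, and 70.3% and 17.0% in the brightest. On brightness-relative values it called 23.5% and 18.7%, and 31.7% and 33.4%. Since a rise or fall also needs the call on levels, bright lists could more easily give rises and dim lists falls.

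**Figure D1:**
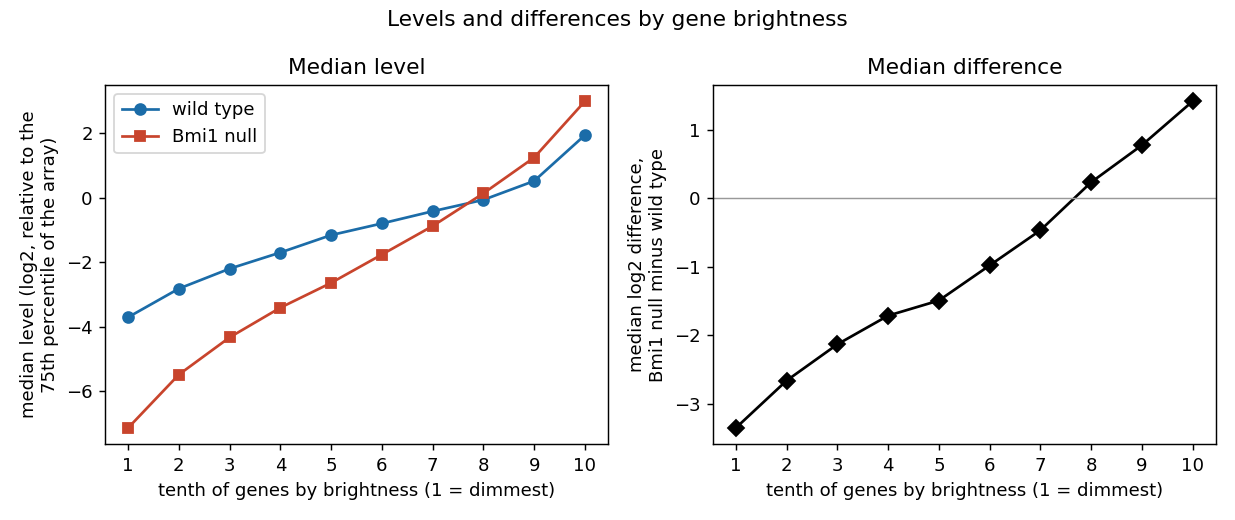
Median level (left, log2 relative to the array's 75th percentile) of the wild-type and Bmi1 null groups and median log2 difference between them (right) in 10 equal groups of genes ordered by brightness, the mean of both groups. The difference climbs from -3.35 in the dimmest to 1.42 in the brightest group, and the wild-type levels span the narrower range.

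Bmi1 itself was lower in the null colonies, which is only a weak check of the labels. Its level was -0.04, -0.89, 0.18 and -0.34 on wild-type replicates 1, 3, 4 and 5 and -2.42, -2.42, -2.46 and -2.14 on Bmi1 null replicates 1 to 4. The groups did not overlap, and it was detected on all 8 arrays. The difference was -2.09 ± 0.23 (SE, limma adjusted p = 3.96e-06) on levels and -1.23 ± 0.23 (SE, limma adjusted p = 0.000401) beside genes of the same brightness. The dimmer of the 2 Bmi1 probes was lower as well (-4.13). Among the genes nearest in brightness, 23.6% had a lower difference than Bmi1, so a fall of this size does not by itself identify the genotype. The level in the double null colonies was -2.44, -2.32, -2.60 and -2.79, near that of the Bmi1 null colonies (difference -0.18 ± 0.23 SE, limma adjusted p = 0.723). Between these 2 mutant genotypes limma called 7.56% of genes on levels, 2.75% higher and 4.8% lower in the double null, a contrast that also divides arrays with and without Y-linked signal.

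Of the 7 inhibitors of cyclin-dependent kinases tested, 3 rose, 3 fell and 1 was called on levels alone. Cdkn2a, the locus of p16 and p19, was at -5.78, -5.87, -5.74 and -5.73 on the wild-type arrays, detected on 0 of 4. On the Bmi1 null arrays it was at -4.14, -4.06, -3.96 and -4.45, detected on 4 of 4, and the groups did not overlap. This was at least 1.85-fold higher, a lower bound against the dimmest detected probes, and no size beyond that bound can be given against a group that was not above background. Limma's adjusted p was 9.63e-06 on levels and 1.62e-07 on brightness-relative values. The probe passed the filter through the Bmi1 null group alone, in which it was high. Both p-values therefore rest on wild-type values not above background and are no separate support for the rise. With normexp background correction the fitted difference on levels was of the other sign (-0.23), and on brightness-relative values Cdkn2a was called higher (limma adjusted p = 2.28e-06). On the double null arrays, whose labels carry the Ink4a/Arf deletion, the level was -7.86, -7.5, -7.11 and -7.80 and it was detected on 0 of 4. Cdkn1a, which encodes p21 and is a p53 target, was at 0.99, 1.90, 0.74 and 1.42 in wild-type and 4.41, 4.71, 4.76 and 4.56 in Bmi1 null colonies. Every Bmi1 null array exceeded every wild-type array, and the brightness-relative difference was 1.82 ± 0.23 (SE, limma adjusted p = 2.08e-05). Cdkn1c (p57) was at -0.37, -0.17, -1.33 and -1.42 in wild-type and 0.90, 2.12, 1.93 and 1.77 in Bmi1 null colonies, again without overlap, a brightness-relative rise of 2.14 ± 0.34 (SE, limma adjusted p = 0.000114). In double null colonies Cdkn1c was lower than in Bmi1 null colonies (difference -2.13 ± 0.33 SE, limma adjusted p = 0.00283).

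The other inhibitors moved the other way or with their brightness. Cdkn2c (p18) was at 2.15, 0.12, 2.12 and 1.49 on wild-type and -0.31, -0.97, -0.31 and -0.27 on Bmi1 null arrays, so the groups did not overlap, and its brightness-relative difference was -2.53 ± 0.39 (SE, limma adjusted p = 0.0001). Cdkn1b (p27) was at 3.17, 1.22, 3.18 and 1.94 in wild-type and 1.71, 0.70, 1.23 and 1.38 in Bmi1 null colonies. Wild-type replicate 3 lay among the Bmi1 null values, and the brightness-relative difference was -2.30 ± 0.45 (SE, limma adjusted p = 0.000614). The other of its 2 probes was higher (1.84), and with the mean of both the difference was -0.38 (limma adjusted p = 0.154). Cdkn2d (p19Ink4d) fell by 1.05 beside genes of its brightness (limma adjusted p = 0.0113), a call lost without wild-type replicate 4 (-0.61) or Bmi1 null replicate 3 (-0.83) and in the authors' processed values (-0.65). Cdkn2b (p15), the neighbour of Cdkn2a, was higher on levels, at 1.13, 1.84, 0.91 and 1.56 in wild-type and 2.81, 2.74, 3.03 and 2.81 in Bmi1 null colonies, and its brightness-relative difference was 0.24 ± 0.19 (SE, limma adjusted p = 0.288).

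**Figure D2:**
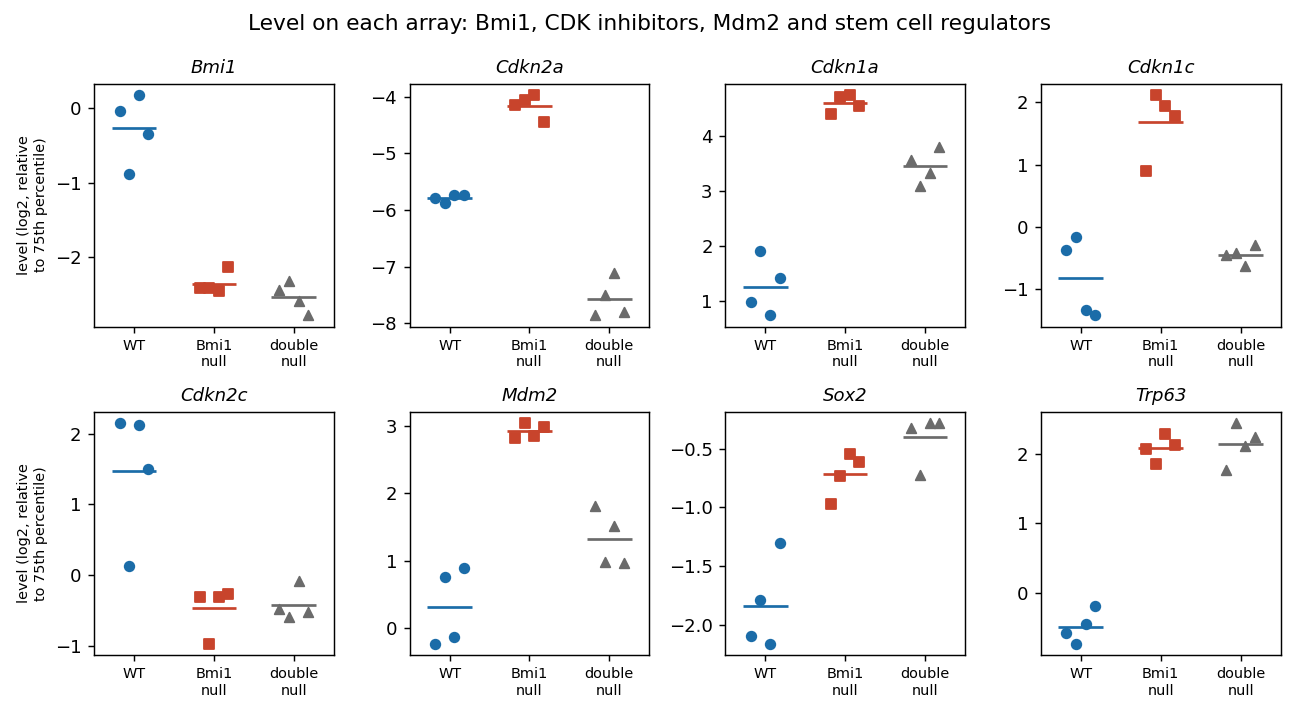
Level on each array (log2 relative to the array's 75th percentile, points) with the group mean (line) for wild-type (WT), Bmi1 null and double null colonies, 4 arrays each. Bmi1 and Cdkn2c lie lower and Cdkn1a, Cdkn1c and Mdm2 higher on every Bmi1 null array than on every wild-type array. Cdkn2a was detected on the Bmi1 null arrays alone.

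Among targets of p53, of 35 tested, 17 rose, 1 fell and 17 were not called on both scales, and their median brightness-relative difference was 0.65. The median of the list lay at -0.52 to -0.21 on wild-type and 0.40 to 0.60 on Bmi1 null arrays, with no overlap. Mdm2, the ubiquitin ligase that degrades p53, was at -0.23, 0.75, -0.13 and 0.89 in wild-type and 2.82, 3.04, 2.85 and 2.98 in Bmi1 null colonies. The lowest Bmi1 null array stood far above the highest wild-type array, and the brightness-relative difference was 1.44 ± 0.26 (SE, limma adjusted p = 0.000327). Also called were the stress-responsive kinase gene Plk3 at 3.43 ± 0.33 and the excision repair nuclease Ercc5 at 2.59 ± 0.20. The phosphatase Tigar, which lowers glycolytic flux, was at 2.49 ± 0.32; 1 of its 3 probes was lower (-0.11 on levels). Gdf15, a stress cytokine, was the 1 target that fell, at -0.81 ± 0.26, and this call was lost without wild-type replicate 1 (-0.70) or Bmi1 null replicate 4 (-0.70). Without the 2 wild-type arrays with Y-linked signal, 16 targets were called higher and 2 lower on brightness-relative values, against 20 and 4 with them. Beside double null colonies, whose arrays also differed in Y-linked signal, the Bmi1 null colonies were higher in Mdm2 (double null minus Bmi1 null -1.60 ± 0.29 SE, limma adjusted p = 0.00602) and Ercc5 (-1.21 ± 0.20 SE, limma adjusted p = 0.00397).

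Proliferation genes did not move as 1 group. Of 47 DNA replication genes 16 rose, 6 fell and 25 were not called on both scales, with a median brightness-relative difference of 0.53 that became -0.27 when brightness was taken from the double null arrays. Prim2, a primase subunit, was at -3.89, -5.38, -4.01 and -3.96 in wild-type and -1.84, -2.0, -1.97 and -2.22 in Bmi1 null colonies. All Bmi1 null values were higher, and the brightness-relative difference was 4.37 ± 0.31 (SE, limma adjusted p = 3.23e-07). Pola2, a subunit of DNA polymerase alpha, differed by 3.23 ± 0.28. In the other direction, Chaf1b, which deposits histones behind the fork, was at 2.66, 2.57, 2.73 and 2.86 in wild-type and 0.30, 1.12, 0.79 and 0.51 in Bmi1 null colonies, lower on every Bmi1 null array and with a brightness-relative difference of -3.12 ± 0.24 (SE, limma adjusted p = 4.93e-07).

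Of 59 mitosis genes 8 rose, 9 fell and 42 were not called on both scales, both below the share of all genes, and the median brightness-relative difference was 0.15, negative in 5 other settings (-0.73 to -0.0023). Kif4, a kinesin of the chromosome arms, was at 1.04, 0.47, 1.09 and 1.04 in wild-type and -0.52, -0.76, -0.49 and -0.56 in Bmi1 null colonies, without overlap, and its brightness-relative difference was -1.75 ± 0.22 (SE, limma adjusted p = 2.22e-05). In double null colonies Kif4 was at 1.26, 0.48, 1.02 and 0.50 (double null minus Bmi1 null 1.40 ± 0.23 SE, limma adjusted p = 0.00354). Kif4 is an X-linked gene, and this difference cannot be told apart from that in sex-linked signal. The mitotic kinase Plk1 fell at -1.71 ± 0.30, a call lost in the authors' processed values (-0.93). Among the genes that rose were the spindle protein gene Dlgap5 at 2.51 ± 0.35 and, each with a probe of the other sign, Cdk1, the kinase that drives mitotic entry, at 2.77 ± 0.34 and the kinesin gene Kif20b at 2.44 ± 0.35. On levels the differences of Dlgap5, Cdk1 and Kif20b were 1.68, 1.60 and 0.77, and for Kif20b the groups overlapped on that scale.

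Many other subunits of the Polycomb complexes rose. Of 30 tested 16 rose, 4 fell and 10 were not called on both scales, and the median brightness-relative difference was 1.01; the list included Bmi1. Accessory subunits of PRC2 led it: Phf1, at -2.97, -3.17, -3.29 and -3.31 in wild-type and -1.96, -1.48, -1.54 and -1.91 in Bmi1 null colonies, and Aebp2, at -2.08, -2.03, -2.09 and -1.36 in wild-type and 0.36, 0.71, 0.43 and 0.39 in Bmi1 null colonies. Both were higher on every Bmi1 null array, with brightness-relative differences of 3.11 ± 0.22 (SE, limma adjusted p = 3.62e-07) and 2.91 ± 0.22 (SE, limma adjusted p = 5.4e-07). Pcgf6, a paralog of Bmi1 in a variant PRC1, differed by 2.66 ± 0.24. Ezh2, the methyltransferase of PRC2, differed by 1.52 ± 0.18. The H2A ubiquitin ligases of PRC1 went opposite ways, Rnf2 (Ring1b) at 1.68 ± 0.20 and Ring1 (Ring1a) at -1.24 ± 0.23, and 1 of the 2 Ring1 probes was higher, so that their mean gave -0.26 (limma adjusted p = 0.194).

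Among Hox genes and other developmental transcription factors, which Polycomb complexes keep silent in many tissues, more fell than rose. Of 35 Hox genes, which pattern the body axis, 0 rose, 21 fell and 14 were not called on both scales, with a median brightness-relative difference of -1.05. The list's median was at 0.51 to 0.63 on wild-type and -0.81 to -0.36 on Bmi1 null arrays, and the median difference was -0.91 without the 2 wild-type arrays with Y-linked signal. Hoxa3 was at 3.86, 3.02, 4.03 and 3.18 in wild-type and -0.81, 0.25, -0.45 and 0.05 in Bmi1 null colonies, lower on all 4 Bmi1 null arrays, with a brightness-relative difference of -4.92 ± 0.33 (SE, limma adjusted p = 2.41e-07). Hoxc10 and Hoxb7 differed by -3.74 ± 0.36 and -3.56 ± 0.68, and Hoxb7 was detected on 2 of 4 Bmi1 null arrays. Of 91 other developmental transcription factors 6 rose, 48 fell and 37 were not called on both scales (median -0.80). Counted on brightness-relative values, 15 of these factors were called higher and 48 lower, and of the Hox genes 1 and 21. The forebrain factor Emx1 led the falls, at 4.13, 3.71, 4.06 and 3.97 in wild-type and -0.41, -0.77, -0.72 and -0.15 in Bmi1 null colonies, a brightness-relative difference of -5.63 ± 0.21 (SE, limma adjusted p = 1.76e-08). Lhx9, of the LIM homeodomain family, followed at -3.62 ± 0.34. The factors that rose included regulators of tooth and oral epithelium: Dlx2 at 2.94 ± 0.30, Msx2 at 2.66 ± 0.40 and Pitx1 at 3.34 ± 1.10. Pitx1 varied among the Bmi1 null arrays (0.98, 1.15, -0.07 and -0.10), and its difference without the 2 wild-type arrays with Y-linked signal was 2.49 (limma adjusted p = 0.167).

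Markers of the cervical loop niche did not share a direction. Of 32 tested, 10 rose, 8 fell and 14 were not called on both scales, and the median brightness-relative difference was 0.02, whose sign changed with the processing (-0.55 to -0.0071 in 8 other settings). Sox2, the transcription factor of the incisor stem cells, was at -2.10, -1.79, -2.16 and -1.30 on wild-type and -0.97, -0.73, -0.55 and -0.61 on Bmi1 null arrays. The groups did not overlap, and the brightness-relative difference was 2.04 ± 0.26 (SE, limma adjusted p = 1.8e-05); it was 0.95 with brightness taken from the double null arrays. Trp63 (p63), which maintains basal epithelial cells, was at -0.58, -0.73, -0.45 and -0.19 in wild-type and 2.07, 1.85, 2.28 and 2.13 in Bmi1 null colonies, higher on every Bmi1 null array, a brightness-relative difference of 1.96 ± 0.19 (SE, limma adjusted p = 2.35e-06). The LIM homeodomain gene Isl1 rose at 2.65 ± 0.26. Spry2, an inhibitor of FGF signalling, rose at 2.54 ± 0.28, with its other probe lower (-0.81 on levels).

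Lgr5, a Wnt-potentiating receptor that marks stem cells in several epithelia, was at -1.77, -2.09, -1.95 and -1.85 on wild-type and -5.08, -4.31, -4.34 and -5.05 on Bmi1 null arrays, detected on 3 of 4 of the latter. It was lower on levels, at -2.78 ± 0.41 (SE, limma adjusted p = 4e-05), and the brightness-relative difference was -0.72 ± 0.32 (SE, limma adjusted p = 0.0622), so it did not pass on both scales. In 5 alternatives it was called lower on brightness-relative values as well: quantile normalization (-0.79, limma adjusted p = 0.0228), cyclic loess (-1.17, adjusted p = 0.0071), the 8 arrays of this comparison alone (adjusted p = 0.0054), brightness from the double null arrays (-1.19, adjusted p = 0.0104) and without Bmi1 null replicate 3 (-0.92, adjusted p = 0.0437). In double null colonies it was higher than in Bmi1 null colonies (1.91 ± 0.41 SE, limma adjusted p = 0.0145). Shh, the hedgehog ligand made by the transit-amplifying cells, fell at -1.86 ± 0.28 and the homeodomain gene Pknox2 at -3.77 ± 0.61; each was detected on 2 of 4 Bmi1 null arrays. Of 23 ameloblast genes 4 rose, 7 fell and 12 were not called on both scales (median -0.16, positive in 5 other settings). Amelx, which encodes the enamel matrix protein amelogenin, was at 2.23, 0.71, 2.24 and 1.44 in wild-type and -0.79, -2.25, -0.63 and -0.35 in Bmi1 null colonies, without overlap, a brightness-relative difference of -3.08 ± 0.45 (SE, limma adjusted p = 6.06e-05). Slc24a4, a calcium exchanger of enamel maturation, fell at -3.03 ± 0.32. Enam, which encodes enamelin, was detected on 4 wild-type and 0 Bmi1 null arrays, at least 18.2-fold lower on levels. This bound does not allow for brightness: over all genes the median difference on levels was -1.24, and 94.8% to 99.8% of them were detected on wild-type arrays. Beside genes of its brightness, Enam differed by -3.01 to -2.71 with 1 array left out. Dlx3, a homeobox gene of ameloblasts and of skin, rose at 3.93 ± 0.74.

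Genes of squamous differentiation rose more often than they fell. Of 45 cornified envelope genes 17 rose, 8 fell and 20 were not called on both scales, with a median brightness-relative difference of 1.14. Of 28 epidermal proteases and their inhibitors 17 rose, 2 fell and 9 were not called on both scales (median 1.78). Lor, which encodes loricrin, the main protein of the cornified envelope, was at 0.78, 0.44, -0.38 and -0.95 on wild-type and 5.80, 5.14, 4.81 and 6.19 on Bmi1 null arrays. All Bmi1 null arrays lay above all wild-type arrays, and the brightness-relative difference was 4.01 ± 1.15 (SE, limma adjusted p = 0.00837). It was 3.24, adjusted p = 0.0617, with a slide block. Rptn (repetin), another envelope precursor, was at -2.99, -2.91, -4.35 and -4.96 in wild-type and 1.88, 1.25, 1.04 and 1.91 in Bmi1 null colonies, with a gap between the groups, and differed by 6.11 ± 1.47 (SE, limma adjusted p = 0.00274). The late envelope genes Lce1f and Lce1d differed by 6.0 ± 1.29 and 5.54 ± 1.44, and Cdsn, which encodes the corneodesmosome protein, by 3.24 ± 0.69. Sprr1a, of the small proline-rich proteins, was at 3.87, 3.89, 1.14 and 1.01 in wild-type and 6.68, 7.03, 7.32 and 7.67 in Bmi1 null colonies. It was higher on wild-type replicates 1 and 3 than on 4 and 5, yet all were below the Bmi1 null arrays, and the brightness-relative difference was 3.40 ± 0.72 (SE, limma adjusted p = 0.00112). Near-identical members of the Lce and Sprr families may share signal between probes. Not all envelope genes rose: Ivl (involucrin), a classical marker of suprabasal keratinocytes, was at -0.09, -0.31, 0.02 and -0.44 in wild-type and -3.13, -2.34, -3.20 and -3.0 in Bmi1 null colonies, lower on every Bmi1 null array at -1.64 ± 0.29 (SE, limma adjusted p = 0.000319), and Sprr2g fell at -2.81 ± 0.24.

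**Figure D3:**
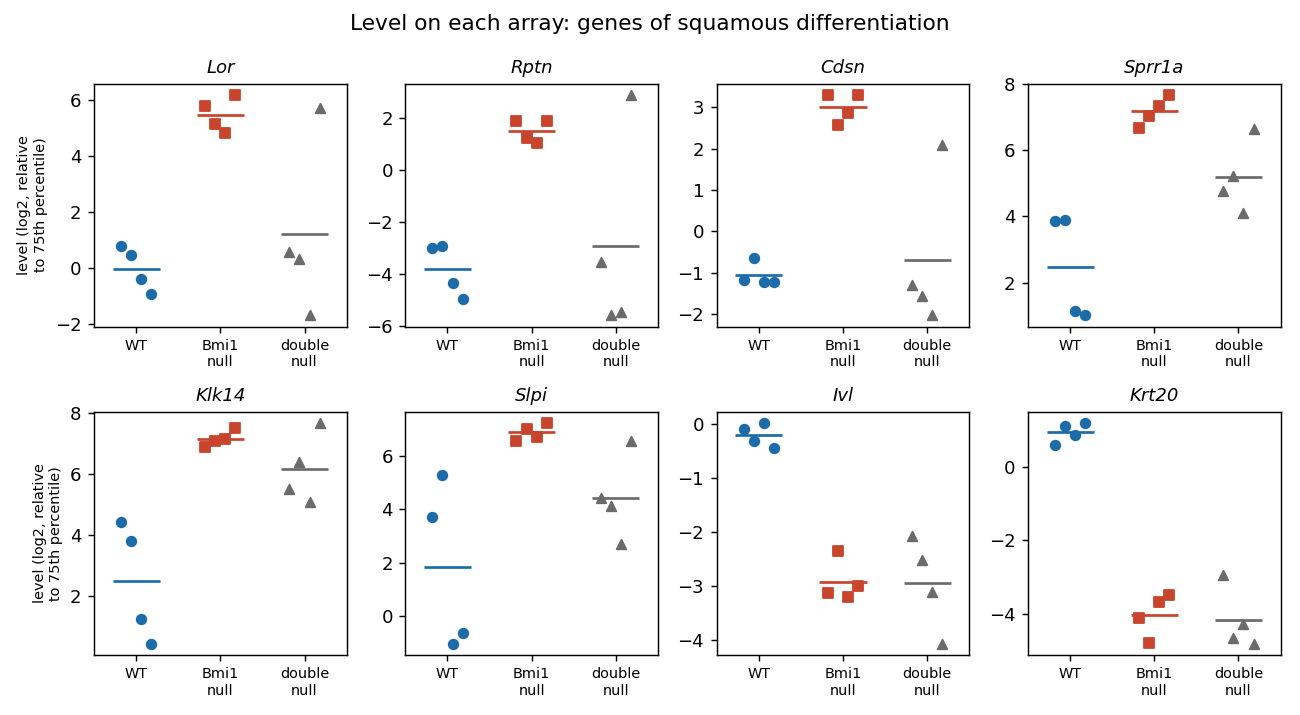
Level on each array (log2 relative to the array's 75th percentile, points) with the group mean (line) of genes of squamous differentiation in wild-type (WT), Bmi1 null and double null colonies, 4 arrays each. Lor, Rptn, Cdsn, Sprr1a, Klk14 and Slpi are higher and Ivl and Krt20 lower on every Bmi1 null array than on every wild-type array, and for Lor, Rptn and Cdsn 1 double null array lies nearer to the Bmi1 null than to the wild-type arrays.

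Klk14, a desquamating kallikrein protease, was at 4.42, 3.80, 1.25 and 0.43 on wild-type and 6.88, 7.09, 7.15 and 7.5 on Bmi1 null arrays, and rose at 3.38 ± 0.82 (SE, limma adjusted p = 0.00292). As for Sprr1a, wild-type replicates 1 and 3, the arrays with Y-linked signal, were the nearer ones, and without them the difference was 4.85 (limma adjusted p = 0.000155). Serpinb3a, a protease inhibitor, rose at 4.89 ± 1.27, and Spink12, another, at 3.68 ± 1.13 (3.33, adjusted p = 0.0829, with a slide block). Slpi, a secreted inhibitor of neutrophil elastase, was at 3.70, 5.28, -1.04 and -0.63 in wild-type and 6.55, 6.99, 6.70 and 7.22 in Bmi1 null colonies. Its wild-type values spread widely, its other probe was lower (-2.92 on levels), and the mean of both gave 0.12 (limma adjusted p = 0.884). Its call was also lost without wild-type replicate 4 (2.78) or 5 (2.85) and with a slide block (2.31). Il1f9, the epidermal cytokine also called IL-36 gamma, was at -3.11, -2.65, -3.52 and -3.85 in wild-type and 1.52, 2.24, 1.67 and 2.96 in Bmi1 null colonies, far apart, with a brightness-relative difference of 5.72 ± 0.96 (SE, limma adjusted p = 0.000189). Of 31 barrier lipid genes 8 rose, 3 fell and 20 were not called on both scales (median 0.54), led by the lipase Lipk at 5.19 ± 0.88.

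The keratins did not follow. Of 39 tested 3 rose, 12 fell and 24 were not called on both scales, and their median of -0.21 was 0.10 with quantile normalization, 0.0073 in the authors' values and 0.031 without the 2 wild-type arrays with Y-linked signal. The basal keratin gene Krt5 was at 4.59 to 5.35 in wild-type and 6.04 to 6.77 in Bmi1 null colonies, and Krt14 at 6.54 to 8.45 and 8.34 to 8.92. Limma's adjusted p on levels was 0.000193 for Krt5 and 0.00947 for Krt14, and beside genes as bright they differed by -0.01 ± 0.17 (SE, limma adjusted p = 0.976) and -0.12 ± 0.30 (SE, limma adjusted p = 0.732). In the authors' processed values Krt14 was called higher, at 0.79 (limma adjusted p = 0.00157). Krt10, the keratin of the spinous layer, was at 1.02, 0.95, 0.54 and 0.42 in wild-type and 5.75, 2.96, 4.04 and 2.81 in Bmi1 null colonies, higher on all Bmi1 null arrays, with a brightness-relative difference of 1.85 ± 1.22 (SE, limma adjusted p = 0.202). In a fit of the 8 arrays of this comparison alone, without the double null arrays, whose SD for Krt10 was 3.27, it was called (limma adjusted p = 0.0146). Krt78 rose at 2.67 ± 0.99 (SE, limma adjusted p = 0.0312), a call lost when any 1 wild-type array or Bmi1 null replicate 4 was left out (2.58 to 2.75 over these). Krt20, a keratin of umbrella and intestinal cells, fell at -3.91 ± 0.39. Of the adhesion genes, of 14 in desmosomes 6 rose, 0 fell and 8 were not called on both scales (median 0.90), and of 10 in hemidesmosomes and laminin-332 7 rose, 0 fell and 3 were not called on both scales (median 1.0). Counted on brightness-relative values, both of these lists gave 7 higher and 1 lower. Col17a1, the collagen that anchors basal cells, was at -0.36, 0.59, -0.55 and 0.28 in wild-type and 3.05, 2.62, 3.41 and 3.53 in Bmi1 null colonies, above all wild-type arrays, at 2.01 ± 0.25 (SE, limma adjusted p = 1.88e-05); Itga6, the integrin partner, differed by 1.33 ± 0.29. Of 24 transcription factors of squamous epithelia 10 rose, 1 fell and 13 were not called on both scales (median 0.92), with Klf3 at 2.24 ± 0.22. Klf4, required for the skin barrier, rose at 1.0 ± 0.35, and its call was lost without wild-type replicate 4 (0.86) or 5 (0.66) and with a slide block (0.66).

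The double null arrays held these genes at other levels. Lor was at 0.58, 0.31, -1.71 and 5.72 on double null replicates 1 to 4, so that replicate 4 matched the Bmi1 null colonies and the others did not (double null minus Bmi1 null -4.26 ± 1.15 SE, limma adjusted p = 0.0419). Rptn was at -3.54, -5.58, -5.45 and 2.91 and Krt10 at 1.35, 0.85, 0.01 and 7.18 on the same arrays, again with replicate 4 apart. The median of the cornified envelope list, relative to genes of like brightness, was -0.99 to -0.03 on wild-type, 0.18 to 0.69 on Bmi1 null and -2.05 to 0.91 on double null arrays. Without the wild-type arrays with Y-linked signal, 18 genes of the list were called higher and 10 lower on brightness-relative values, against 19 and 12 with them.

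Promoters of 3 of the envelope genes that rose are shown because these 3 rose and AP-1, a dimer of Fos and Jun proteins, is a known regulator of epidermal promoters. The 250 bases before the transcript start came from RefSeq (GRCm38.p6), read along the gene's strand, and TGANTCA, sought on both strands, is in capitals.
Lor, chr3:92083143-92083392, minus strand: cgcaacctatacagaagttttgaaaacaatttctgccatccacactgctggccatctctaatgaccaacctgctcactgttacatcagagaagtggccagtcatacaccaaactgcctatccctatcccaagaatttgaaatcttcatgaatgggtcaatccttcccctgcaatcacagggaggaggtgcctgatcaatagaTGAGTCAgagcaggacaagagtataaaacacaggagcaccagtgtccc
Rptn, chr3:93393449-93393698, plus strand: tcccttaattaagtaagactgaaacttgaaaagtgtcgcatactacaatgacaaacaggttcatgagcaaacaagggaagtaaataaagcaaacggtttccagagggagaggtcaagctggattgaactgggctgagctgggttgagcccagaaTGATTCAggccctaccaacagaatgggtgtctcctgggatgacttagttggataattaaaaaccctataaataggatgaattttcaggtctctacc
Sprr1a, chr3:92485882-92486131, minus strand: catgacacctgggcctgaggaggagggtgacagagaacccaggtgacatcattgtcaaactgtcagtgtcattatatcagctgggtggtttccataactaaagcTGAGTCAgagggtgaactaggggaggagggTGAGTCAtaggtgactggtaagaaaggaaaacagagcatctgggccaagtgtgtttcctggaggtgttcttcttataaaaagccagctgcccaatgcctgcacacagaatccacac
The match lay 48 bases before the start in Lor, 96 in Rptn, and 146 and 116 in Sprr1a, where the first match overlaps the letters of the antioxidant core sought below. Promoters were matched for 12 of the 17 envelope genes that rose, and 7 held the motif (Krtdap, Lor, Rptn, Sbsn, Scel, Sprr1a and Sprr1b). Of the 38 matched members of the whole list 15 held it (39.5%), Ivl among them, which fell. The share was 7.82% over all 27025 symbols with a promoter entry, 6.95% over the genes tested and 5.74% over the tested genes that rose. A match is a description of these letters and not a binding site.

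Signalling pathways split by member. Of 28 Notch pathway genes 10 rose, 9 fell and 9 were not called on both scales. Jag2, a ligand, and Notch1, a receptor, rose at 2.18 ± 0.28 and 1.62 ± 0.24, and Notch1 was at -0.53, -0.79, -0.57 and 0.01 in wild-type and 2.01, 1.33, 1.57 and 1.94 in Bmi1 null colonies without overlap. Maml1, the coactivator, rose at 2.99 ± 0.25. Among the transcriptional effectors, Hes1 rose at 1.35 ± 0.21, while Hes5 was at 4.62, 3.18, 4.55 and 3.60 in wild-type and 1.49, 1.22, 1.0 and 1.94 in Bmi1 null colonies, lower on all Bmi1 null arrays at -4.06 ± 0.40 (SE, limma adjusted p = 2.92e-06). Hey1 and Heyl fell too, at -2.81 ± 0.47 and -2.76 ± 0.47. Of 45 genes of BMP and activin signalling 14 rose, 13 fell and 18 were not called on both scales. Id1, a direct BMP target that inhibits basic helix-loop-helix factors, was at -1.98, -1.78, -2.90 and -3.25 in wild-type and 0.82, 0.93, 1.44 and 1.80 in Bmi1 null colonies, well separated, at 4.04 ± 0.52 (SE, limma adjusted p = 2.34e-05). The inhibitory Smad7 differed by 3.98 ± 0.42, and the decoy receptor Bambi by 3.37 ± 0.40 with its other probe lower (-3.82 on levels).

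Of 19 Wnt ligands 3 rose, 9 fell and 7 were not called on both scales (median -0.59). Wnt7b, an epithelial ligand, was at 1.27, 0.70, 1.16 and 1.07 on wild-type and 4.55, 4.97, 5.71 and 5.21 on Bmi1 null arrays. No array overlapped, and the brightness-relative difference was 2.53 ± 0.27 (SE, limma adjusted p = 5.75e-06), whereas Wnt6 fell at -2.53 ± 0.29. Of 25 Wnt feedback and antagonist genes 1 rose, 7 fell and 17 were not called on both scales, among them the secreted antagonist Sfrp2 at -2.70 ± 0.33 and the effector Lef1 at -2.31 ± 0.18, both lower. Hedgehog pathway genes gave 3 rises and 8 falls of 18 (median -0.52), and FGF pathway genes 7 and 11 of 34. Ligands and receptors of the EGFR family rose in 8 of 18 cases, with 0 falls and a median of 0.61. Counted on brightness-relative values, this list gave 9 higher and 1 lower. The ligands Tgfa, Nrg1 and Epgn differed by 2.09 ± 0.29, 1.38 ± 0.31 and 1.51 ± 0.43 (Epgn 1.37, adjusted p = 0.058, with a slide block).

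Genes of the antioxidant response, which the factor Nrf2 controls, rose in most cases. Of 40 tested 24 rose, 0 fell and 16 were not called on both scales, with a median brightness-relative difference of 0.77, and the list's median was at -0.68 to -0.24 on wild-type and 0.35 to 0.48 on Bmi1 null arrays. Counted on brightness-relative values, 25 genes were called higher and 1 lower. Without the 2 wild-type arrays with Y-linked signal the median was 0.95. Slc7a11, the cystine importer, was at -3.01, -3.09, -3.01 and -2.97 in wild-type and -1.49, -1.18, -1.80 and -1.05 in Bmi1 null colonies, higher on every Bmi1 null array at 3.20 ± 0.27 (SE, limma adjusted p = 9.35e-07). Gclm, a subunit of the first enzyme of glutathione synthesis, was at -2.71, -2.28, -2.44 and -1.92 in wild-type and -0.57, -1.10, -0.62 and -0.04 in Bmi1 null colonies and differed by 2.95 ± 0.30 (SE, limma adjusted p = 3.3e-06). Nqo1, a quinone reductase, was at -0.44, 0.38, -0.60 and -0.14 in wild-type and 2.15, 3.12, 3.55 and 4.27 in Bmi1 null colonies, with a wide gap, at 2.34 ± 0.45 (SE, limma adjusted p = 0.000577). Double null colonies had Nqo1 at -1.77, -1.28, -2.21 and -0.36, below every Bmi1 null array, with replicate 4 within the wild-type range (double null minus Bmi1 null -4.68 ± 0.46 SE, limma adjusted p = 0.000161); here too the genotypes differed in Y-linked signal. The extracellular peroxidase Gpx3 differed by 3.22 ± 1.11, a call lost without wild-type replicate 5 (2.87) and with a slide block (2.26).

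The promoters of Gclm and of Txnrd1, a thioredoxin reductase of the same list that rose, are shown in the same way with the core of the antioxidant response element, TGACNNNGC on either strand, in capitals.
Gclm, chr3:122245307-122245556, plus strand: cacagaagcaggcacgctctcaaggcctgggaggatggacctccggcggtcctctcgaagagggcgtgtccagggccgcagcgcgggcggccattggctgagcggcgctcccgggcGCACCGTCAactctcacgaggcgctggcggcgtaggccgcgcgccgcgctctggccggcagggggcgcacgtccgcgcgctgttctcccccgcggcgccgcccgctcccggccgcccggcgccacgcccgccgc
Txnrd1, chr10:82858956-82859205, plus strand: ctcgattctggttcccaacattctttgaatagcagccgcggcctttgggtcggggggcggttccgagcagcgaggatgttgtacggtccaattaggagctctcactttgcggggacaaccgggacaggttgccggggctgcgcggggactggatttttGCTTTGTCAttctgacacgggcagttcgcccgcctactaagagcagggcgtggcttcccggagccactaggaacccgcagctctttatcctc
The core lay on the opposite strand in both, 134 bases before the start in Gclm and 92 in Txnrd1, which has 3 promoter entries. The Txnrd1 entry shown is the first of them that held the core. For both motifs a gene was counted where any of its entries held a match, so genes with several entries could match more easily. Of the 21 matched genes of the list that rose 6 held the core (28.6%: G6pdx, Gclm, Gsta3, Nfe2l2, Prdx1 and Txnrd1), as did 8 of the 35 matched members of the whole list (22.9%), against 11.5% of all symbols with an entry, 12.9% of the genes tested and 13.3% of the tested genes that rose.

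Several lists of protein synthesis and metabolism, most of their genes bright, gave more rises than falls, and glycolysis enzymes had a median near 0. Of 83 subunits of the respiratory chain and ATP synthase 54 rose, 5 fell and 24 were not called on both scales (median 0.84), of 82 cytoplasmic ribosomal proteins 49 rose, 1 fell and 32 were not called on both scales (median 0.63), and of 20 tRNA synthetases 15 rose, 1 fell and 4 were not called on both scales (median 0.99). Cholesterol synthesis genes gave 15 rises and 0 falls of 27 (median 0.58). Proteasome subunits gave 19 and 2 of 38 (median 0.46, which was -0.08 with brightness from the double null arrays). Glycolysis enzymes gave 5 and 2 of 20, with a median of 0.0070 that was negative in 12 other settings. Counted on brightness-relative values, respiratory chain and ATP synthase subunits gave 55 higher and 9 lower, and ribosomal proteins 49 and 5. In the same count cholesterol synthesis genes gave 15 and 1, and glycolysis enzymes 5 and 6. The ribosomal protein gene Rpl21 was at -3.08, -3.61, -3.31 and -3.09 on wild-type and -1.31, -1.32, -1.84 and -1.41 on Bmi1 null arrays, apart by more than the spread of either group, at 3.36 ± 0.24 (SE, limma adjusted p = 3.15e-07). Ndufa8, of complex I, was at -2.79, -2.05, -2.61 and -1.62 in wild-type and 0.39, 0.15, 0.48 and 0.41 in Bmi1 null colonies, without overlap, at 3.21 ± 0.29 (SE, limma adjusted p = 1.36e-06). Rpl21 and Ndufa8 had the largest brightness-relative difference of their lists and were dim beside them. The median levels of these lists on wild-type arrays were 2.78 to 3.62 for ribosomal proteins and 0.82 to 1.43 for respiratory chain and ATP synthase subunits. The synthetase genes Yars and Tars differed by 3.09 ± 0.27 and 2.53 ± 0.28. Farsa went the other way at -2.98 ± 0.27, although 2 of its 3 probes were higher. The sterol transporter Stard4 differed by 1.60 ± 0.22 and the sterol isomerase Ebp by 1.26 ± 0.24 (0.47, adjusted p = 0.0625, with brightness from the double null arrays).

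Secreted factors associated with senescence, a state that p16 and p21 help to enforce, did not share a direction. Of 40 tested 5 rose, 9 fell and 26 were not called on both scales, where 18.4% of all genes rose and 28.8% fell, both above the shares in the list (median -0.08, positive in 2 other settings, 0.0038 and 0.012). Csf1, a macrophage growth factor, was at -3.34, -2.80, -3.05 and -2.47 in wild-type and -1.02, -0.05, 0.43 and -1.14 in Bmi1 null colonies, above all wild-type arrays, at 3.74 ± 0.36 (SE, limma adjusted p = 2.18e-06). Angptl4 was at 3.53, 2.75, 3.47 and 3.13 in wild-type and -0.16, 0.34, -0.24 and 0.40 in Bmi1 null colonies, below all wild-type arrays, at -4.28 ± 0.29 (SE, limma adjusted p = 2.72e-07), and the receptor gene Tnfrsf1b differed by -4.0 ± 0.20. Of 33 interferon response genes 2 rose, 15 fell and 16 were not called on both scales (median -0.63; -0.27 without the 2 wild-type arrays with Y-linked signal). Ifit3 was at 0.16, 0.38, 0.21 and 0.02 in wild-type and -4.87, -5.59, -4.79 and -5.79 in Bmi1 null colonies, detected on 2 of 4 Bmi1 null arrays, and differed by -3.77 ± 0.37 (SE, limma adjusted p = 2.93e-06). Isg15 and Cmpk2 differed by -2.40 ± 0.27 and -2.78 ± 0.49. Of 32 immediate early and AP-1 genes 11 rose, 7 fell and 14 were not called on both scales. Fosl1 (Fra-1), an AP-1 subunit of keratinocytes, was at -2.57, -2.86, -2.45 and -2.66 in wild-type and -0.57, -0.55, -0.37 and -0.17 in Bmi1 null colonies, higher on all Bmi1 null arrays at 3.38 ± 0.25 (SE, limma adjusted p = 4.52e-07). The small Maf factor gene Maff rose at 5.31 ± 0.53, detected on 1 wild-type and 4 Bmi1 null arrays. Junb fell at -3.20 ± 0.37, while its dimmer probe was higher (3.52 on levels).

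The remaining lists were mixed. Epithelial junction genes gave 16 rises and 5 falls of 40 (median 0.42), and Crb3, a polarity protein of the apical membrane, differed by 4.73 ± 0.34, Esrp1, an epithelial splicing regulator, by 2.42 ± 0.24, and the tight junction gene Ocln by 2.62 ± 0.30. Counted on brightness-relative values, 19 junction genes were called higher and 12 lower. Integrin and focal adhesion genes gave 18 rises and 7 falls of 39 (median 0.70), with the actin crosslinker gene Actn4 at 2.81 ± 0.23 and the integrin gene Itga4 at -3.61 ± 0.33. Extracellular matrix genes gave 15 rises and 7 falls of 44, among them the basement membrane collagen Col4a5 at 2.91 ± 0.27. Matrix metalloproteinases and their inhibitors gave 3 rises and 8 falls of 23 (median -0.60), with Mmp17 at -3.33 ± 0.32. Brightness-relative values alone would count 7 of this list higher and 8 lower. In the Myc network, 6 rises and 1 fall of 12 included Myc antagonists and their partner: Mxd4 differed by 1.92 ± 0.20, Mxd1 by 1.57 ± 0.27 and Max by 1.67 ± 0.23. Hypoxia targets gave 9 rises and 4 falls of 27, and Bnip3, a mitophagy receptor, was at -3.55 ± 0.42. Genes of the unfolded protein response gave 11 rises and 1 fall of 38, replication-dependent histones 11 rises and 4 falls of 31 and class I antigen presentation 5 rises and 1 fall of 16, where the peptide-trimming Erap1 differed by 2.69 ± 0.26. Imprinted growth genes gave 5 rises and 11 falls of 25 (median -0.53). Among them Mest, expressed from the paternal allele, rose at 2.45 ± 0.50 and Ndn, likewise paternal, fell at -2.42 ± 0.29.

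**Figure D4:**
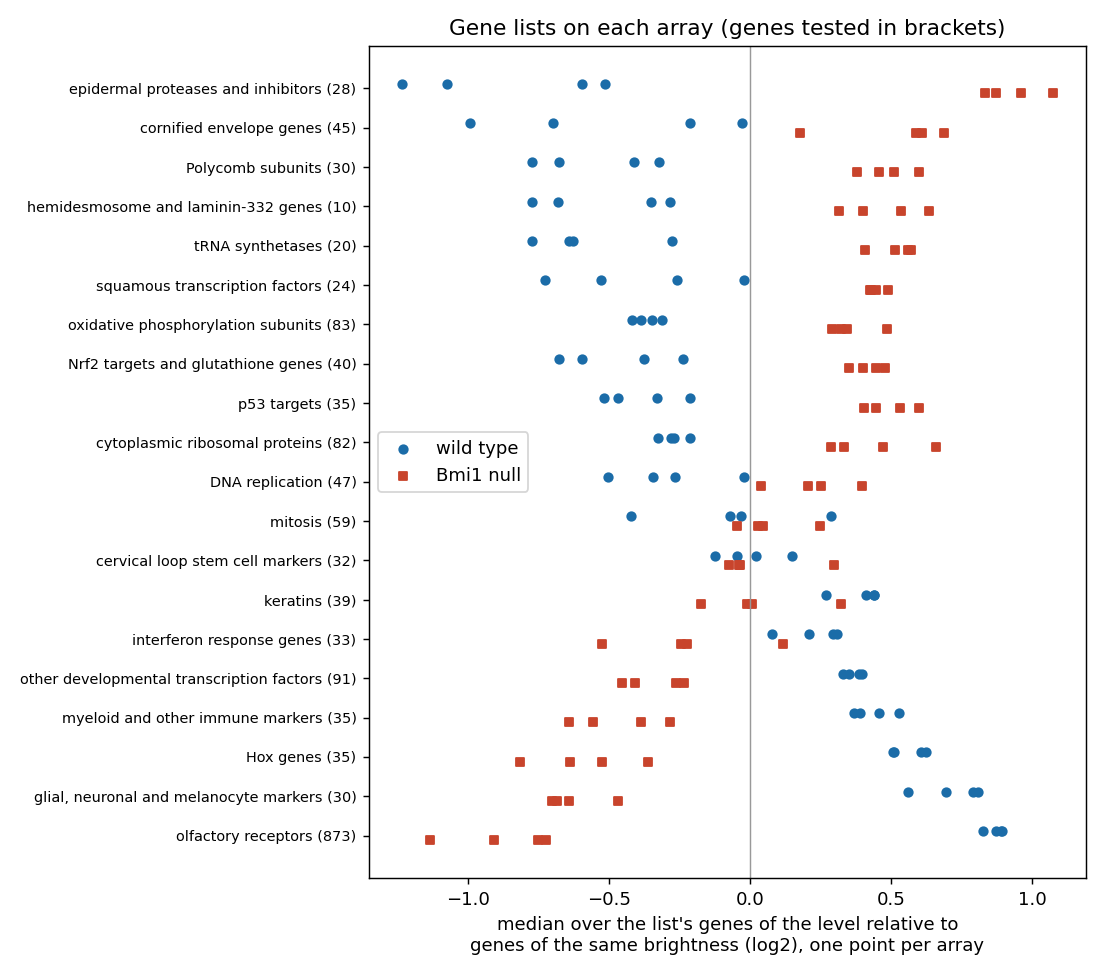
Median over each gene list of the level relative to genes of the same brightness (log2), with 1 point per array for wild-type and Bmi1 null colonies and the number of genes tested in brackets. Among the lists plotted the groups overlap for mitosis genes and stem cell markers, the keratins and interferon response genes have a Bmi1 null array within the wild-type range, and in the others the groups are apart. Of the lists not plotted, those of Notch, BMP, FGF, extracellular matrix, secreted senescence factor, glycolysis and histone genes also overlap.

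Lists of markers of other cell types and tissues all had medians below 0. Of 35 immune markers 0 rose, 20 fell and 15 were not called on both scales (median -0.95), of 30 glial, neuronal and melanocyte markers 2 rose, 20 fell and 8 were not called on both scales (median -1.30), and of 29 mesenchymal markers 3 rose, 7 fell and 19 were not called on both scales (median -0.36). Endothelial markers gave 1 rise and 6 falls of 17 (median -0.55). Olfactory receptors, which serve odour detection in the nose, gave 0 rises and 651 falls of 873 (median -1.80), and vomeronasal and taste receptors 0 and 100 of 143 (median -1.68). Liver, pancreas, muscle, photoreceptor and lens, and testis genes had medians of -0.92, -1.17, -0.89, -0.87 and -1.0. On the wild-type arrays 97.8% to 100% of olfactory receptors were detected, against 52.9% to 71.5% on Bmi1 null and 50.1% to 72.2% on double null arrays. For immune markers the shares were 100% on all wild-type arrays and 82.9% to 88.6% on Bmi1 null arrays. The part of this signal in the other results was not tested. The Hox and developmental factor lists moved in the same direction as these lists.

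**Figure D5:**
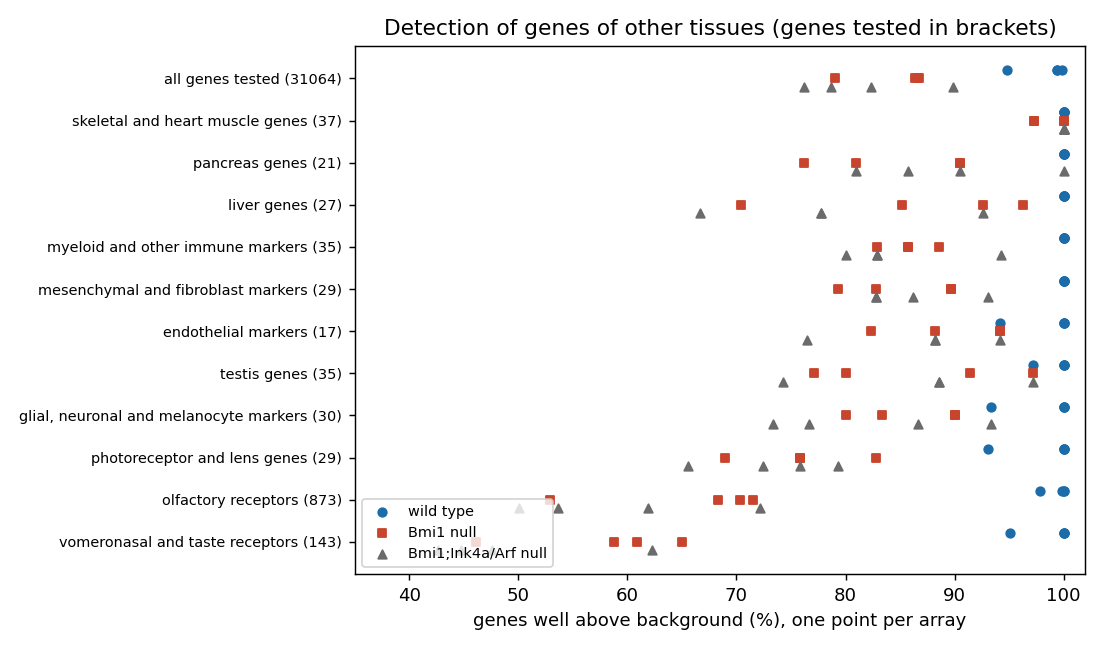
Share of genes well above background (%) on each array in lists of genes of other tissues, with all genes tested at the top. Wild-type arrays lie at 93.1% to 100% in every such list. Outside the muscle genes, the Bmi1 null and double null arrays reach lower in all of them, down to 46.2% and 42.7% in vomeronasal and taste receptors. In the muscle genes Bmi1 null replicates 2 and 3 lie at 97.3% and all other arrays at 100%.

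By the fitted brightness-relative difference the 8 largest rises were those of Smg8, a regulator of nonsense-mediated decay, Rptn, Lce1f, Tmco3, Il1f9, Lce1d, Maff and Gorab, a golgin gene. Smg8 and Tmco3 were detected on 0 wild-type and 4 Bmi1 null arrays, Gorab on 0 and 3 and Maff on 1 and 4, so these passed the filter through the group in which they were high. Smg8 and Tmco3 were at least 2.07-fold and 2.60-fold higher, and the place of Smg8, Tmco3 and Gorab beside Rptn, Lce1f and Il1f9 rests on wild-type values not above background. The largest falls were those of Speer4d (-8.84), Speer4a (-7.69), Olfr1330 (-7.40), Olfr1299 (-7.15), Speer8-ps1 (-6.83), BC061237 (-6.45), Btbd35f1 (-6.07) and Obox3 (-5.96). The Speer genes and Obox3 are known from testis and oocyte, and Speer and olfactory receptor genes have near-identical copies, so their probes may not separate them. Speer4d was at 5.36, 4.88, 5.31 and 5.05 on wild-type and -3.86, -0.12, -3.78 and -3.45 on Bmi1 null arrays, where replicate 2 stood above the others. Olfr1330 was at 2.55, 2.92, 2.57 and 2.51 in wild-type and -6.75, -2.94, -6.59 and -7.17 in Bmi1 null colonies, again with replicate 2 highest, and was detected on 1 of 4 Bmi1 null arrays.

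Some genes varied widely among colonies of 1 genotype. Over the 23499 genes detected on all 8 arrays the median SD was 0.341 in Bmi1 null, 0.339 in double null and 0.247 in wild-type colonies, and it was larger in the Bmi1 null than in the wild-type group for 65.9% of genes. The wild-type arrays also had the narrower range of signals (interquartile range 2.49 to 2.62, beside 4.32 to 4.68 in Bmi1 null), and its part in the smaller SD was not tested. The genes with the largest SD among Bmi1 null arrays were Gpa33 (2.62), Odam (2.61), Lce1c (2.56), Hba-a1 (2.08), Prss42 (2.02) and Cldn6 (1.94). Odam, an ameloblast and junctional epithelium gene, was at 1.62, -1.16, -3.17 and -4.34 on Bmi1 null replicates 1 to 4 and at -2.53 to -1.81 on wild-type arrays. Gpa33 was lowest on replicate 4 (0.98, 0.86, -0.74 and -4.63), Lce1c lowest on replicate 2 (2.95, -2.54, 0.57 and 2.78), and the claudin gene Cldn6 lowest on replicate 1 (-3.0, -1.03, -0.16 and 1.68). Among wild-type arrays the largest SDs were those of Ssty1 (4.40), Slpi (3.15), Ltf (2.14), Klk14 (1.93), Aldh3a1 (1.81) and Ltb4r2 (1.78). Ssty1 is Y-linked and was at 4.13, 3.44, -3.33 and -4.24. Ltf (lactotransferrin) was at 5.36, 5.51, 1.22 and 2.45, and the aldehyde dehydrogenase gene Aldh3a1 at 1.90, 2.55, -1.10 and -0.61. Both were higher on replicates 1 and 3, the wild-type arrays with Y-linked signal, than on 4 and 5, as were Klk14, Slpi and Sprr1a.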

How the data were processed

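The members and gene lists were chosen with earlier results of these data known. The authors extracted the arrays with Feature Extraction 10.7.3.1 (protocol GE1_107_Sep09), per the file headers, and deposited background-subtracted signals as linear intensity; a deposited table holds their processed values on a log2 scale (column medians 7.21 to 7.24, correlation with the log2 spot median 0.992 to 1.00), whose normalization no source used here names. Precision is limited by the number of arrays, 4 per genotype.

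Outlier-marked spots were missing values, spots of a probe were averaged, and a probe was kept if well above background on at least 3 of 4 arrays of a genotype (39338 of 41174 probes). Symbols came from RefSeq GRCm38.p6 by accession (24844 probes with 1, 0 with several, 16330 with none), and 16986 of the genes tested had one. The brightest probe stood for a gene. Levels were log2 intensity minus the array's 75th percentile. Limma 3.58.1 in R 4.3.3 fitted a mean per genotype over all 12 arrays, two-sided with Benjamini-Hochberg adjustment over all genes tested. Brightness was the mean of both groups' means, and the code was tested on simulated data. A gene below background on every array of a group got an at-least fold against the dimmest detected probes, after normalization.

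Named genes were Bmi1, Sox2, Lgr5 and the CDK inhibitors, the 8 largest rises and falls with brightness-relative values that did not overlap (difference of at least 1, detected on 3 of 4 arrays of the higher group, clone-like names left out), up to 3 per list called on both scales, and the 6 of largest SD per group among genes detected on its 4 arrays; Chaf1b, Dlx2, Enam, Ezh2, Gdf15, Hes1, Heyl, Ivl, Jag2, Junb, Kif4, Klf4, Krt10, Krt14, Krt5, Krt78, Lor, Mdm2, Msx2, Notch1, Nqo1, Nrg1, Plk1, Ring1, Rnf2, Sprr1a, Sprr2g and Txnrd1 were named after their values were seen. Slide 1 held wild-type and Bmi1 null replicates 1 and 4, and slide 2 wild-type replicate 3 and Bmi1 null replicate 2. Alternatives were other scalings, background correction (normexp, offset 50, on median spot and background signals in place of mean signals), filters, blocks, a wider brightness window and each array left out. Leaving out both wild-type arrays with Y-linked signal was chosen after seeing the data. Some named genes are not reported here.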

Additional observations from a re-analysis of the deposited data

Results flagged for a closer look

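Of 368 sets of 4 arrays of 1 genotype examined for 130 named genes and the lists, 25 had 1 array far from the other 3, with a gap to the nearest that exceeds Dixon's 95% limit as a share of the whole range. Chance gives about 5% in sets not chosen by their spread. Genes named for the largest SD in a group are among those examined, so the count cannot be set against that rate. For gene levels, with the gap as a share of the range, these were Bmi1 on Bmi1 null replicate 4 (0.859), Cdkn2c on Bmi1 null replicate 2 (0.941), Gdf15 on wild-type replicate 5 (0.849), Prim2 on wild-type replicate 3 (0.921), Kif4 on wild-type replicate 3 (0.905), Aebp2 on wild-type replicate 5 (0.912), Cdsn on wild-type replicate 3 (0.894), Yars on Bmi1 null replicate 2 (0.833), Speer4d on Bmi1 null replicate 2 (0.89), Olfr1330 on wild-type replicate 3 (0.842), Olfr1330 on Bmi1 null replicate 2 (0.862), Speer4a on Bmi1 null replicate 2 (0.839), Olfr1299 on Bmi1 null replicate 2 (0.9), Btbd35f1 on Bmi1 null replicate 2 (0.915), Hba-a1 on Bmi1 null replicate 1 (0.947), Ltb4r2 on wild-type replicate 3 (0.839) and Ltb4r2 on Bmi1 null replicate 2 (0.847). For list medians of brightness-relative values they were CDK inhibitors on Bmi1 null replicate 3 (0.857), cervical loop stem cell markers on Bmi1 null replicate 1 (0.899), keratins on wild-type replicate 4 (0.835), FGF pathway genes on Bmi1 null replicate 3 (0.91), Myc and Mxd network on wild-type replicate 3 (0.877), cholesterol synthesis genes on wild-type replicate 5 (0.936), imprinted growth genes on Bmi1 null replicate 4 (0.847) and skeletal and heart muscle genes on wild-type replicate 5 (0.943).

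Several of the falls share 1 array: Speer4d, Speer4a, Olfr1330, Olfr1299 and Btbd35f1 were highest on Bmi1 null replicate 2, at -0.12, -1.20, -2.94, -4.79 and -1.85, where the other 3 arrays were at -3.45 or lower for Speer4d and -6.93 or lower for Btbd35f1. The erythroid gene Hba-a1 was at -0.97, 3.11, 3.34 and 3.12 on Bmi1 null replicates 1 to 4, and replicate 1 stood alone. The leukotriene receptor gene Ltb4r2 was at 0.19, -3.05, 0.81 and 0.46 on wild-type arrays, with replicate 3 apart, and at -0.44, -2.99, -0.52 and -0.07 on Bmi1 null arrays, with replicate 2 apart.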

How the results depend on the processing

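With 4 colonies per genotype and wild-type arrays of a narrow signal range, the split of calls on levels depends on the scaling, while on brightness-relative values the counts stayed within 1.5 times in every alternative. On levels, quantile normalization gave 11978 lower genes, cyclic loess 11432, the authors' values 11874 and genes detected on all 12 arrays 9950 (of 21931), with shares higher of 46.7%, 41.4%, 46.7% and 43.7%, and 46.9% under median scaling. Leaving out 1 array gave 24819 to 25761 calls on levels and 18140 to 19552 on brightness-relative values. The genotypes share replicate numbers 1, 3 and 4, whose deviations from the group means correlated at -0.11, 0.056 and 0.14. Arrays with different numbers gave -0.18 to 0.20. These few values cannot decide whether the numbers pair the arrays, since replicates 1 and 4 of both genotypes also share slide 1. A replicate block gave 25176 and 18753 calls, and changed the brightness-relative call of 6 of 130 named genes (Slpi, Klf4, Gpx3, Cldn6 and Aldh3a1 lost, Ltf gained). The slide as a block changed 10 (also Lor, Krt78, Spink12 and Epgn lost).

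Bmi1 kept its direction in every alternative; within slide 2 it was -1.53 on levels and -0.85 beside its brightness. Cdkn2a on levels was -0.23 with normexp, 1.46 within slide 1 and 1.81 within slide 2, and 5.36 and 4.82 brightness-relative within these slides. The cause was not tested. All these values rest on wild-type signals not above background and are not sizes of the rise. Cdkn2a was not among the genes detected on all 12 arrays.

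The alternatives cover 130 named genes. Crb3, Esrp1, Ocln, Actn4, Itga4, Col4a5, Mmp17, Mxd4, Mxd1, Max, Bnip3, Erap1, Mest, Ndn and Txnrd1 are not among them, and their dependence on the processing is not given. Bmi1 and Cdkn2a, described above, are left out of the pairs counted next. Of 2789 pairs of another of the 130 genes and an alternative, 2670 kept direction and side of the threshold, 64 lost a call and 21 gained one. The gains were in Lgr5, Krt10, Odam, Lce1c, Ltf, Prss42 and Ltb4r2. In 34 pairs the sign changed, all in genes not called on brightness-relative values except Ssty1 (1.20 without the 2 wild-type arrays with Y-linked signal). Cdkn2b was -0.35 with brightness from the double null arrays. Krt5 was 0.15 (quantile), 0.12 (authors' values), 0.046 (mean of probes), 0.11 (slide block), 0.019 (replicate block), 0.0013 (wider window), 0.065 without both wild-type arrays with Y-linked signal, and -0.077 to 0.076 without 1 array. Krt14 was 0.47 (quantile), 0.79 (authors' values, called, adjusted p = 0.00157), 0.038 (normexp), -0.38 to 0.21 without 1 array and 0.43 without both. Gpa33 was 0.58 (authors' values), 0.30 (normexp), 0.25 (mean of probes) and -0.70 to 0.47 without 1 array (0.47 without Bmi1 null replicate 4). Hba-a1 was 0.20 (cyclic loess), 0.23 (authors' values), 1.46 (brightness from the double null arrays) and -0.68 to 0.62 without 1 array (0.62 without Bmi1 null replicate 1). Ltb4r2 was 0.0060 (authors' values), 0.35 (slide block), 0.60 (replicate block) and -1.43 to 0.31 without 1 array. Ltf was 0.41 without both wild-type arrays with Y-linked signal. Of 1296 pairs of a list and an alternative, 48 gave a median of the other sign, in 16 lists.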
